A study of Homo sapiens with 23 samples.

Results

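AP-1 is a family of transcription factors that bind DNA as pairs of basic leucine zipper (bZIP) proteins, and 10 of its genes were followed here: FOS, FOSB, FOSL1, FOSL2, JUN, JUNB, JUND, ATF3, BATF3 and MAFF. They were chosen by name, and each was read over its GENCODE 44 gene body (hg38) with 5 kb on both sides, called its window. They are 10 of 20033 protein-coding gene windows. The data were ChIP-seq peak lists from SW480, an established cell line grown from a human colorectal adenocarcinoma. The antibodies were directed against propionyl (pr), butyryl (bu) or acetyl (ac) lysine at H3K18 and H4K12. Cultures were exposed for 12 to 16 hours to sodium propionate (NaPr, 10 mM), in which propionyl marks were mapped, or to sodium butyrate (NaBu, 1 mM), in which butyryl marks were mapped. Acetyl marks were mapped under both treatments and in untreated cells, which gave 10 groups of 2 libraries, beside 3 inputs (sheared chromatin without an antibody step), 1 for each condition.

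A FOS protein needs a JUN partner to bind DNA well, while JUN proteins can also pair with each other. The pairs recognise the heptamer TGACTCA, and pairs with ATF members also bind the cAMP response element TGACGTCA. Several of these genes are immediate-early genes, which are switched on within minutes by growth factors and stress through MAP kinases and serum response factor, and which colorectal cancer cells often express at raised levels. Acylation of histone tails at promoters and enhancers goes together with active transcription.

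A peak is called a region below, and the main value is the percent of a window that regions cover. It tells where the peak caller found signal and does not measure its height. The rank of a region is its place in the list of its library by p-value, so rank 1 is the strongest, and distances in bp run from the annotated start of the gene, with negative values upstream. Ranks are not scaled for list length, so the same rank lies deeper in a short list.

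The lists differed in length before any gene was considered. The 20 immunoprecipitated libraries held 8158 to 208823 regions and the inputs 30386 to 93923. The library labelled H3K18ac in NaPr, replicate 1, was more like H4K12ac untreated, replicate 2 (Spearman rho 0.949 across the 20033 windows), than its own replicate (0.757), which was the highest such value among the 8 of 20 libraries that were more like another library than their own replicate. Both H4K12ac libraries of NaBu were among them (0.732 and 0.696 with H3K18ac in NaBu, replicate 2, and H3K18bu, replicate 1, against 0.564 with each other). H4K12ac in NaBu, replicate 2, held 11680 regions against 88658 in replicate 1. Run tags in the names of the lists put the propionyl libraries and the NaPr input in one run, the untreated input with all acetyl libraries of NaPr and untreated cells in another, and everything from NaBu in the remaining one. Mark and run therefore cannot be told apart for propionyl against acetyl, nor treatment and run for NaBu against untreated. Of 10 epithelial marker genes 4 to 10 had a region within 1 kb of the start in each immunoprecipitated library and 0 to 2 in the inputs, while 10 markers of other cell types had 0 to 4 and 0.

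Most of the AP-1 genes, though not BATF3, were among the most covered genes in every immunoprecipitated library. Over the 10 genes, the median percentile among all windows of a library lay between 93.9 (H4K12ac in NaPr, replicate 2) and 99.3 (H3K18ac in NaPr, replicate 2). In each of these libraries 8 to 10 of the 10 genes were at percentile 75 or above. In H4K12bu only 23.6 and 21.0% of all windows held a region, so any region put a gene there. The AP-1 windows ran from 11830 bp (JUNB) to 65444 bp (ATF3), and those of short genes were mostly flank. Percentiles were not adjusted for window length. In the inputs the median percentile was 70.3 in NaPr, 27.6 in NaBu and 88.0 in untreated cells, and 4, 4 and 8 genes reached percentile 75. Coverage in these input windows was small, at 5.50% or less for any gene. What control, if any, was used to call regions in the inputs is not given in the sources used here, which limits what a value above the input means. Members passed their matched input in all 20 libraries for 8 genes, in 18 for JUND and in 14 for BATF3.

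**Figure D1:**
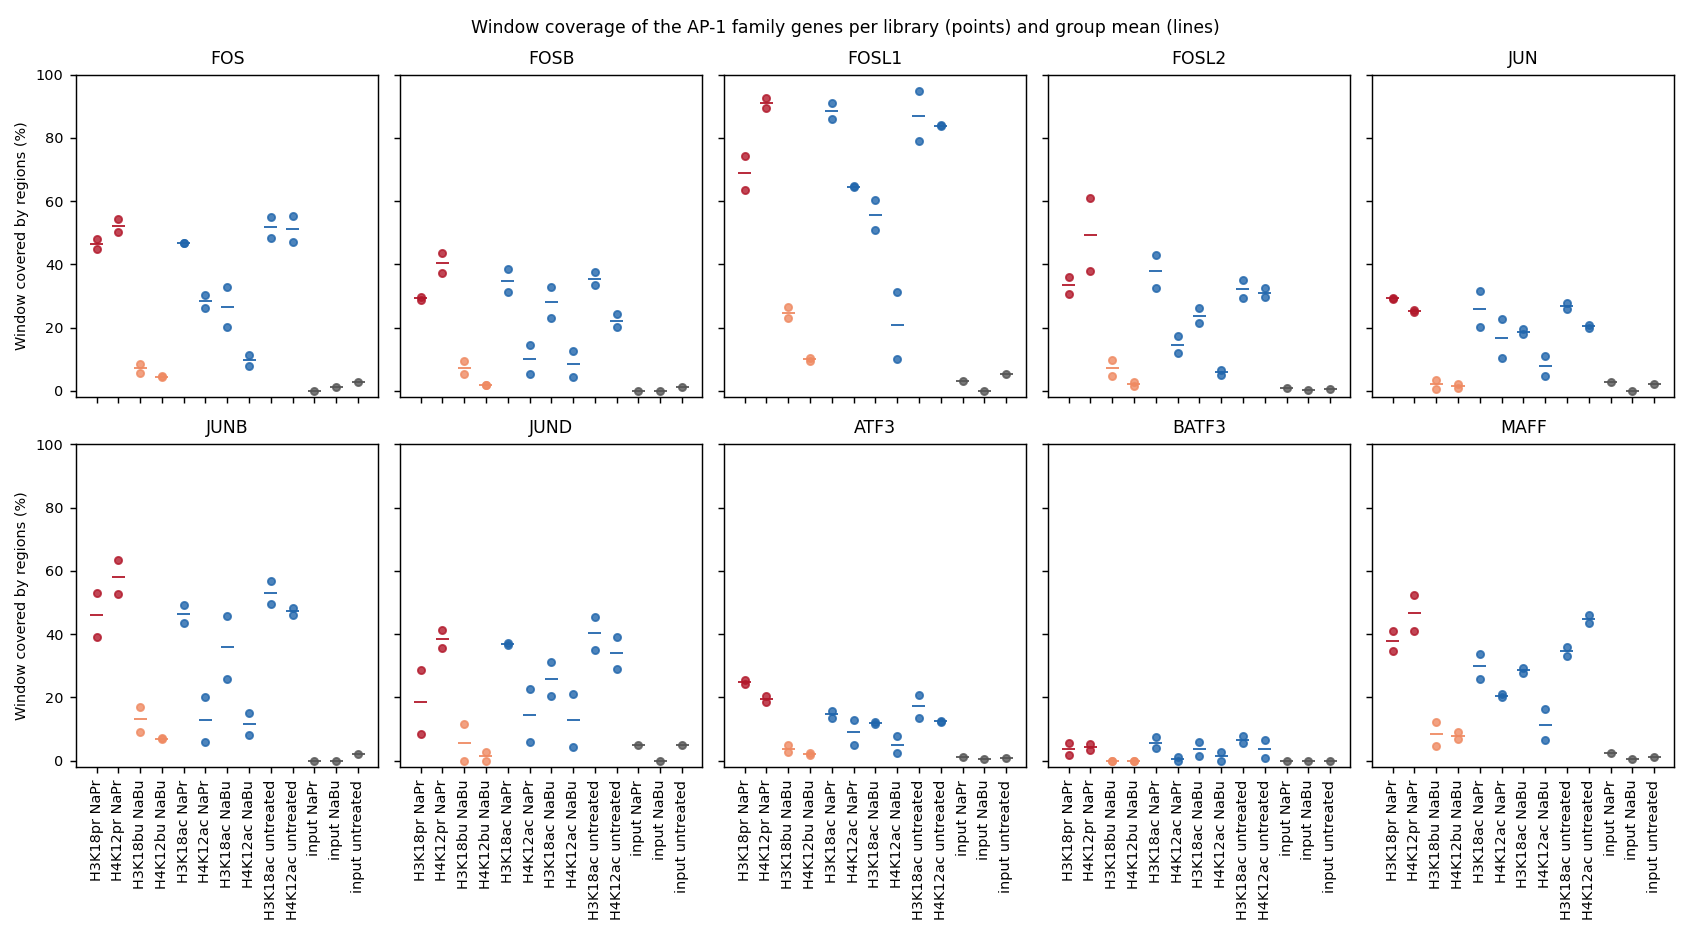
Percent of each gene window covered by regions (y axis) in each library, by group (x axis). Points are libraries, lines are group means, red is propionyl, orange butyryl, blue acetyl and grey input. FOSL1 reaches 94.7%, and BATF3 stays at or under 7.67%.

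FOS, on chr14:75278826-75282230, encodes the founding member of the family and is a classic immediate-early gene. Its window was covered from 4.51% (H4K12bu, replicate 2) over a median of 38.9% to 55.2% (H4K12ac untreated, replicate 2), against 0, 1.36 and 2.97% in the NaPr, NaBu and untreated inputs. The strongest FOS summit lay just upstream of the start in every acetyl library of NaPr and untreated cells, at -146 to -182 bp. It ranked 17 and 18 in H3K18ac in NaPr, 26 and 67 in H4K12ac in NaPr, 23 and 51 in untreated H4K12ac, and 24 and 514 in untreated H3K18ac. In the 4 propionyl libraries the strongest summit was farther upstream, at -1144 to -1262 bp, with ranks of 432 to 993. These 2 sets of positions did not overlap. The NaBu libraries lay between and beyond them. Their acetyl summits were at -213 and -667 bp (H3K18ac) and -1136 and -904 bp (H4K12ac), so -1136 bp was beside the propionyl positions. The butyryl summits were at -640 and -1972 bp (H3K18bu) and -689 and -815 bp (H4K12bu). The untreated input also held regions next to these places, with its own strongest at -641 bp and a rank of 5246, and 19 of the 20 strongest FOS regions overlapped an input region.

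The region around FOS was a single block in H3K18pr, 6016 and 6427 bp wide, and the widest in H4K12pr measured 3348 and 3469 bp. In untreated H3K18ac the widest were 5980 and 5548 bp. In butyryl libraries no FOS region was wider than 754 bp. The FOS promoter is printed here because it holds the strongest acetyl summit of NaPr and untreated cells. The bases before the start are given 5′ to 3′ on the strand of the gene, from RefSeq on GRCh38.p14, with matches to the GC box GGGCGG, the TATA motif TATAAA, the cAMP response element TGACGTCA, the AP-1 heptamer and the CArG box in capitals, on either strand. FOSB, JUN and JUND follow for comparison.
FOS, chr14:75278578-75278825, plus strand: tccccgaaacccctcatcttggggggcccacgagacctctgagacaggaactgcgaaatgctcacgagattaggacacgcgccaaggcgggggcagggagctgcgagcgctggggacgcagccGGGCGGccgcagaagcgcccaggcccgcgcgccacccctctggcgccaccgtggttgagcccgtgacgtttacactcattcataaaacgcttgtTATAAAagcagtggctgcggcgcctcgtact
FOSB, chr19:45467746-45467994, plus strand: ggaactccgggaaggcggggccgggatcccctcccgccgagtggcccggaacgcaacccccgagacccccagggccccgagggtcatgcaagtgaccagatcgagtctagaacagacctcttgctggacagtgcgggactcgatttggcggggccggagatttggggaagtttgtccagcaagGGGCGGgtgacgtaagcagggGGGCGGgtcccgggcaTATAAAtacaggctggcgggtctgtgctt
JUN, chr1:58784049-58784297, minus strand: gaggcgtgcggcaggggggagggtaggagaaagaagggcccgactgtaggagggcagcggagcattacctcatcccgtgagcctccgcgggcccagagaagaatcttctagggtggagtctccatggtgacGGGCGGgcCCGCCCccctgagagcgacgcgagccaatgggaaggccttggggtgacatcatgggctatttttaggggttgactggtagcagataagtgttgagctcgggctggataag
JUND, chr19:18281623-18281872, minus strand: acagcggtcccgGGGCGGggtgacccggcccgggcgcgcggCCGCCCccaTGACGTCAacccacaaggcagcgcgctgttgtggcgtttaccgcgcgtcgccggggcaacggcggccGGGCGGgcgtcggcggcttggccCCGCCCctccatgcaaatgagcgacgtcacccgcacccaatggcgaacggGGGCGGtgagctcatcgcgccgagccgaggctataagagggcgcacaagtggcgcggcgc
The FOS stretch holds 1 GC box and 1 TATA motif close to the start, FOSB 2 GC boxes and 1 TATA motif, and JUN 2 GC boxes, 1 on each strand, in a stretch that an exon of the noncoding gene ENSG00000290013 also covers. JUND holds 1 cAMP response element and 5 GC boxes. RefSeq promoter windows (250 bases before to 50 after the start) were found for 8 of the 10 genes, and those of FOSL1 and BATF3 were not used here. Among the 8, the window nearest to the GENCODE start held a GC box in 7 genes, a TATA motif in 3, a cAMP response element in 2 (JUND, MAFF), an AP-1 heptamer in 1 (FOSL2) and a CArG box in 0. The same motifs occur in 44.9, 11.6, 1.84, 4.96 and 1.3% of 34943 windows of all genes. A match describes letters and not binding. Only exact matches within these windows were counted, so elements farther upstream or with other letters would be missed. A count of 0 thus does not show that a gene lacks the element.

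**Figure D2:**
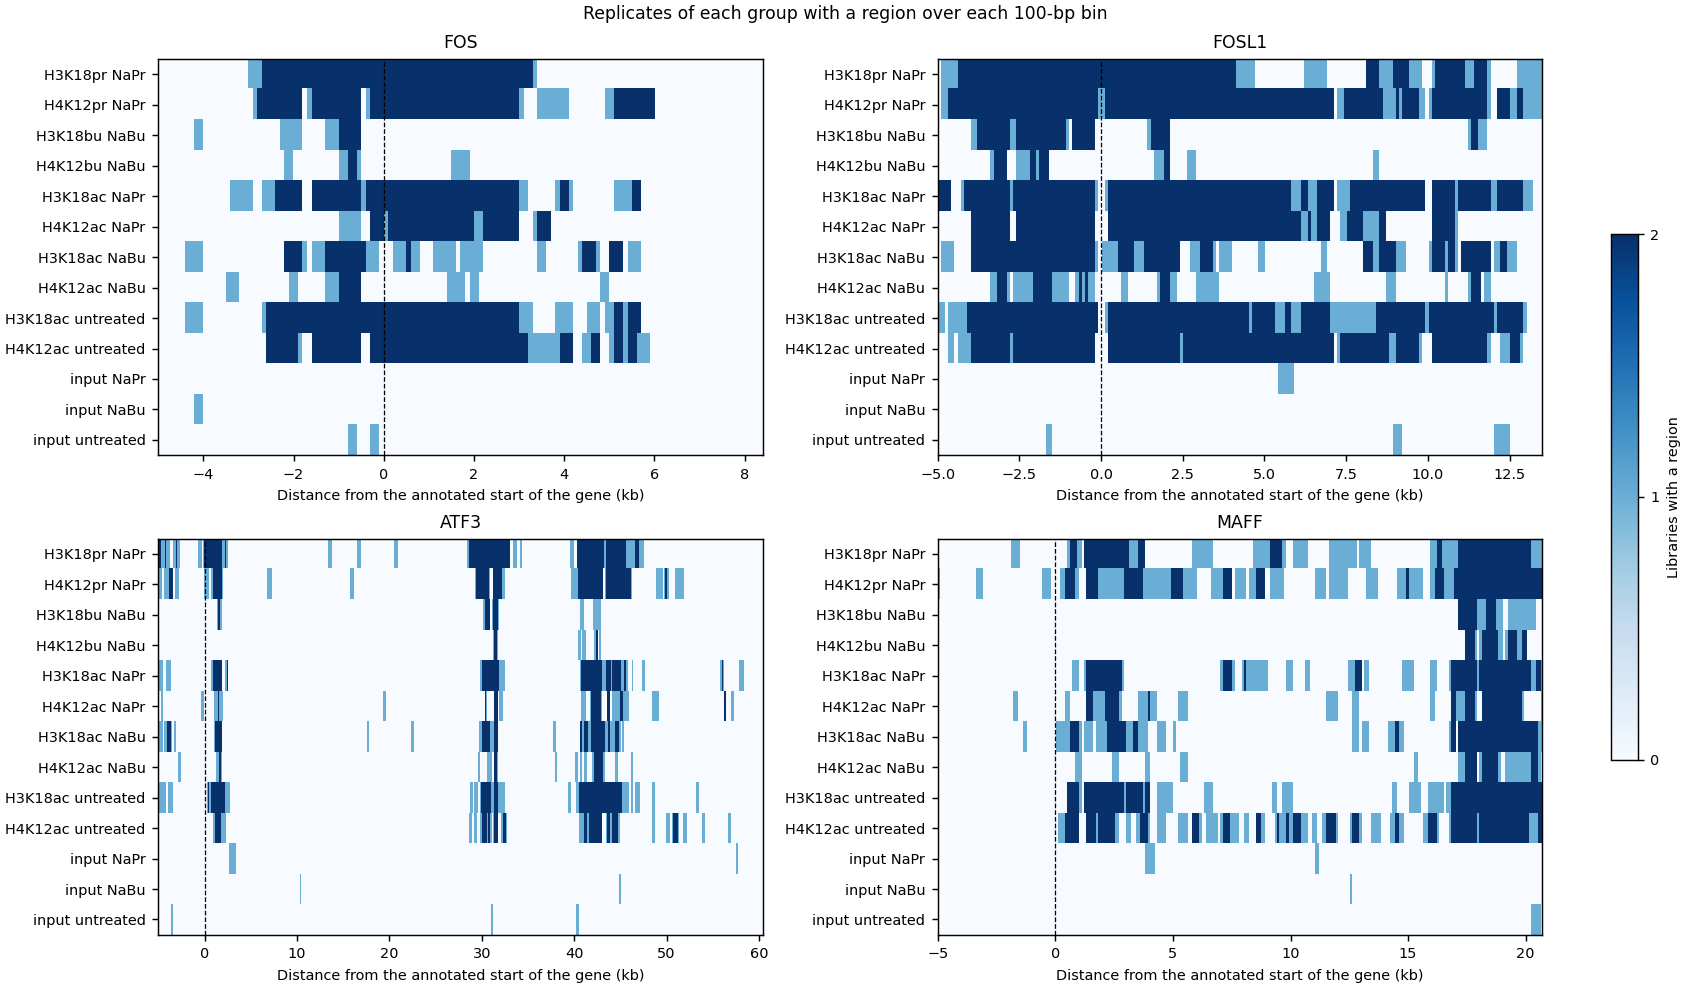
Number of replicates (0, 1 or 2, colour) with a region over each 100-bp bin of 4 gene windows, by group (rows), against the distance from the annotated start in kb (x axis, dashed line at 0). A region lies over the start base of FOS in 11 libraries and over that of FOSL1 in 3, all propionyl, and ATF3 and MAFF hold their shared stretches far inside or past the gene.

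FOSB, on chr19:45467995-45475179, encodes a close relative of FOS. Its coverage ran from 1.76% (H4K12bu, replicate 2) over a median of 23.7% to 43.5% (H4K12pr, replicate 1). The strongest region of the window was mostly not at FOSB. In 15 of 20 libraries its summit lay at 10798 to 10850 bp, past the end of the gene and within 1 kb of the start of ERCC1, a DNA repair gene on the other strand. It ranked as high as 22 (H3K18bu, replicate 2), and the untreated input had a summit there too, at 10798 bp with a rank of 12902. The 4 propionyl libraries were different, with summits at -677, 631, 653 and -603 bp and ranks of 1015 to 3841, as was H3K18ac in NaBu, replicate 1, at -141 bp.

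FOSL1, on chr11:65892049-65900573, encodes FRA-1, the FOS relative often raised in invasive carcinoma cells. It was the most covered of the 10 genes by median, with 9.36% (H4K12bu, replicate 1) at the lowest, a median of 64.6% and 94.7% (untreated H3K18ac, replicate 1) at the highest. Its percentile among windows never fell under 99.6. The best rank ran from 15 (untreated H3K18ac, replicate 1) to 2487 (H4K12ac in NaBu, replicate 2). The regions were wide in the propionyl libraries, where the strongest measured 9029 and 9043 bp in H3K18pr and 11972 and 6953 bp in H4K12pr, and narrow in butyryl ones, where it measured 421 to 965 bp. All 20 libraries covered 4 stretches of it, at -3200 to -2900, -2100 to -2000, -1900 to -1600 and 1900 to 2100 bp. FIBP and CCDC85B also have starts in this window, so its coverage is not of FOSL1 alone.

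FOSL2, on chr2:28392448-28417317, encodes FRA-2. Coverage ran from 1.64% (H4K12bu, replicate 2) over a median of 27.7% to 60.9% (H4K12pr, replicate 1). Summits of the strongest region stayed within 1 kb of the annotated start in 17 of 20 libraries. A stretch of 400 bp at -1200 to -800 bp was covered in all 20.

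JUN, on chr1:58776845-58784048, encodes the main partner of FOS proteins. Its coverage ran from 0.732% (H3K18bu, replicate 2) over a median of 19.9% to 31.4% (H3K18ac in NaPr, replicate 2), and 17 of 20 libraries passed every input. The strongest summit lay within 1 kb of the start in 18 libraries, mostly upstream, inside exons of the noncoding genes LINC01135 and ENSG00000290013, which start there. Coverage of JUN and of these genes cannot be told apart, and 16 of the 20 strongest regions overlapped an input region.

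JUNB, on chr19:12791486-12793315, and JUND, on chr19:18279694-18281622, encode JUN relatives, of which JUND is known for steady expression in resting cells. JUNB was covered from 5.79% (H4K12ac in NaPr, replicate 2) over a median of 41.4% to 63.3% (H4K12pr, replicate 1), yet its best rank in any library was 1066. Its strongest region was in the top 1% of the list in 0 of 20 libraries, so a high share of the window went with regions outside it. The strongest JUNB summit changed place between libraries, from -2345 to 1726 bp. JUND ran from 0 (H3K18bu and H4K12bu, replicate 2 of each) over a median of 25.6% to 45.5% (untreated H3K18ac, replicate 1). Its strongest summit fell within 1 kb of the start in 16 of the 18 libraries with a region, although no library had a region over the start base itself. The untreated input had its own JUND summit at -758 bp with a rank of 608, and 15 of the 18 strongest regions overlapped an input region. In 17 of the 18 the summit was also within 1 kb of the start of MIR3188, a microRNA gene, and the strongest JUNB summit was within 1 kb of a start of HOOK2 in 9 of 20 libraries, so these cannot be told apart.

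ATF3, on chr1:212565334-212620777, encodes a stress-induced ATF member. Its long window was covered from 1.67% (H4K12bu, replicate 1) over a median of 12.4% to 25.4% (H3K18pr, replicate 1), and its best rank from 139 (H3K18pr, replicate 2) to 2282. The strongest summit was never within 1 kb of the annotated start. It lay in an intron in 14 libraries and upstream of the gene in 6, at up to -6718 bp. Those 6 regions reach into the window from beyond it, and the rank of 139 belongs to the summit at -6718 bp. In those 6 libraries the strongest summit was in an exon of the noncoding gene ENSG00000260805 and within 1 kb of the start of another, ENSG00000288007. In 7 libraries it was within 1 kb of the start of another annotated ATF3 transcript. The intronic stretch at 31300 to 31600 bp was covered in all 20 libraries.

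BATF3, on chr1:212686417-212699840, encodes a bZIP factor best known in dendritic cells, and it stood apart from the other 9 genes. It had regions in 14 of 20 libraries, 0% coverage in all 4 butyryl libraries, and at most 7.67% (untreated H3K18ac, replicate 1). Its median percentile was 43.9, against 93.6 to 99.9 for the other genes. Its best rank was 12119, and no input held a region.

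MAFF, on chr22:38200767-38216507, encodes a small MAF protein, which lacks a transactivation domain. Coverage ran from 4.74% (H3K18bu, replicate 2) over a median of 28.5% to 52.5% (H4K12pr, replicate 1). The strongest summit was at nearly the same place in all 20 libraries, 18192 to 18485 bp from the start, past the end of the gene, with no annotated gene start within 1 kb. No input had its strongest region there, but 10 of the 20 strongest regions overlapped an input region. Ranks ran from 53 (H3K18pr, replicate 1) to 2821 (H3K18bu, replicate 2).

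**Figure D3:**
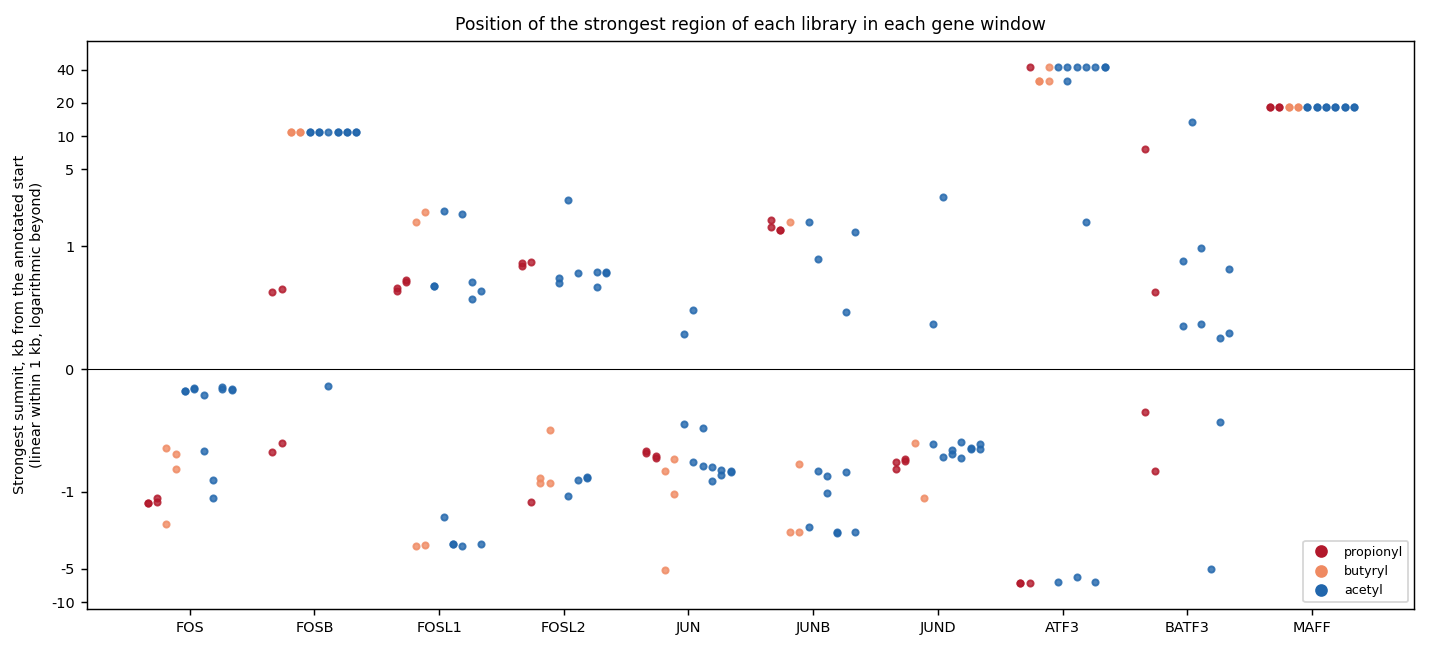
Position of the strongest region's summit in kb from the annotated start (y axis, linear within 1 kb and logarithmic beyond) for each gene (x axis) and immunoprecipitated library (points, coloured by mark, in the order of the groups). MAFF and most FOSB points gather at 18192 to 18485 bp and 10798 to 10850 bp. The propionyl FOS points lie below the acetyl ones of NaPr and untreated cells, but not below all those of NaBu.

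AP-1 heptamers in these windows gave the places where family members could meet their own genes, and only their letters were searched. FOS had 0 in its window, ATF3 13, MAFF 5, JUN and BATF3 4 each, FOSL1, FOSL2 and JUND 3 each, and FOSB and JUNB 1 each. The median over all gene windows was 0.151 per kb. Densities were above it in JUND (0.251), JUN (0.233), ATF3 (0.199), MAFF (0.194), BATF3 (0.171) and FOSL1 (0.162). They were below it in FOSL2 (0.0860), JUNB (0.0845), FOSB (0.0582) and FOS (0). Of the 37 sites, 25 were held by at least 1 library and 12 by 0. The mean number of libraries per site was set beside that per 100-bp bin of the same window. They were 12 and 11.9 for FOSL1, 11 and 4.75 for FOSL2, 12 and 6.65 for JUNB, and 4.08 and 2.39 for ATF3. Sites had fewer than bins in MAFF (4 and 5.40), FOSB (3 and 4.39), JUND (1.33 and 4.60), JUN (0.25 and 3.51) and BATF3 (0.25 and 0.607). The 5 held by most libraries and no input are given. Regions of 17 libraries held the FOSL2 site at 16534 bp, 16 the ATF3 site at 30428 bp, 15 and 13 the FOSL1 sites at 3279 and 1184 bp, and 12 the JUNB site at -1967 bp. No input held any of these 5. Of the 4 sites of JUN, 1 was held, by 1 library. The first 4 sites lie in introns and that of JUNB upstream of it, in an intron of HOOK2. They are shown with 60 bases on both sides, from hg38, on the strand of the gene, with the heptamer or its reverse complement in capitals.
FOSL1, chr11:65897231-65897357, minus strand: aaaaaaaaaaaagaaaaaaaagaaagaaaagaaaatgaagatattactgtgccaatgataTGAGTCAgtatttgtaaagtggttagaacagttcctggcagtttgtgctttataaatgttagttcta
FOSL1, chr11:65899326-65899452, minus strand: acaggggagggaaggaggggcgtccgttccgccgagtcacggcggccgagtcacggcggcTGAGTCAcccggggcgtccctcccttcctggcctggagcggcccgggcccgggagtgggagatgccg
FOSL2, chr2:28408919-28409045, plus strand: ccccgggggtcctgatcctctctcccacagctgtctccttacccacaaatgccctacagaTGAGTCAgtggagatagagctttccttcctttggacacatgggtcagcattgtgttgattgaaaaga
JUNB, chr19:12789456-12789582, plus strand: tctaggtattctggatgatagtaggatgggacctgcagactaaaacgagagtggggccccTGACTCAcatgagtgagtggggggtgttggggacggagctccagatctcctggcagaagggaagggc
ATF3, chr1:212595699-212595825, plus strand: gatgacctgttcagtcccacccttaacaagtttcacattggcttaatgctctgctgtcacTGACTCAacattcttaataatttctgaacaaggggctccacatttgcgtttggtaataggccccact

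Groups were compared in pairs of 2 libraries each. An exact permutation test of 2 against 2 cannot give a two-sided p below 0.333, so groups are called apart where they do not overlap, and limma was fitted over all windows. The sources used here do not say whether replicates were separate cultures, so its p-values measure the spread between these libraries, which may be technical. Several comparisons share libraries, such as H4K12ac in NaPr in the contrasts with H4K12pr and with untreated cells, so they are not independent.

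Propionyl and acetyl marks were compared under the same NaPr treatment. At H4K12 all 10 genes were more covered by the propionyl mark, with no overlap between the groups, where 66.5% of all 18475 windows tested were apart in that direction and 5.34% in the other. JUNB had 63.3 and 52.8% in H4K12pr against 20.2 and 5.79% in H4K12ac. FOSB had 43.5 and 37.2% against 14.6 and 5.23%, and FOSL2 60.9 and 37.8% against 17.3 and 12.0%. FOS had 54.3 and 50.2% against 30.4 and 26.3%, MAFF 52.5 and 40.9% against 20.2 and 20.9%, and FOSL1 92.7 and 89.3% against 64.3 and 64.8%. Both H4K12pr libraries were above both H4K12ac libraries for each of these genes.

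On the log2(percent + 1) scale, limma with Benjamini-Hochberg adjustment over all windows called 6 of the 10 genes higher in H4K12pr and 0 lower, where 31.5% of all windows were called higher and 0.601% lower. JUNB differed by 2.29 ± 0.58 (SE, adjusted p = 0.0451), FOSB by 2.06 ± 0.50 (adjusted p = 0.0400), FOSL2 by 1.67 ± 0.33 (adjusted p = 0.0282), MAFF by 1.13 ± 0.21 (adjusted p = 0.0249), FOS by 0.86 ± 0.18 (adjusted p = 0.0294) and FOSL1 by 0.49 ± 0.12 (adjusted p = 0.0407). All windows shifted by a median of 1.11, and the 10 genes by a median of 1.39. JUNB (1.18), FOSB (0.95) and FOSL2 (0.56) exceeded that shift, MAFF (0.02) matched it, and FOS (-0.25) and FOSL1 (-0.62) were under it. Coverage cannot pass the whole window, so FOSL1, with a mean of 64.6% in H4K12ac, could not have reached a shift of 1.11. With lists cut to the same 122532 regions, 10 genes were still apart and 6 called higher, as were 6391 of 18258 windows. Without any 1 of the 4 libraries limma called 0 of 10 genes, but 3 of these 4 fits called 0 of all windows, and those 3 say nothing about these genes in particular. The median over the 10 genes was then 0.96 to 1.83, with 10 of 10 positive in each fit. FOSL1 turned to -0.16 when regions over input regions were left out. Such regions were dropped whole here and below, however wide, so sign changes under this setting may follow region width, which was not tested. Ranked as a percentile among the windows of each library, 1 gene was apart with more H4K12pr and 4 with more H4K12ac.

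At H3K18 the same comparison was mixed. ATF3 and MAFF were higher in H3K18pr and FOSB, FOSL1 and JUND higher in H3K18ac, where 13.6 and 12.1% of 18396 windows were apart in these directions. ATF3 had 25.4 and 24.3% in H3K18pr against 13.4 and 15.8% in H3K18ac. MAFF had 40.9 and 34.6% against 33.8 and 25.9%, and turned by -1.37 points without regions over the inputs. FOSL1 had 74.1 and 63.5% against 91.0 and 85.9%, JUND 28.5 and 8.35% against 37.3 and 36.7%, and FOSB 29.8 and 28.6% against 31.3 and 38.4%. FOS was level, with 44.9 and 47.9% against 46.8 and 46.8%. The genes did not share a direction, and limma (Benjamini-Hochberg) called 0 of the 10 genes and 0% of all windows, with 0 and 529 at an unadjusted p under 0.05. Without H3K18ac in NaPr, replicate 1, 2 genes were higher in H3K18pr and 4 in H3K18ac. Without H3K18pr replicate 1 or H3K18ac replicate 2, 6 and 5 were higher in H3K18ac.

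The excess of the propionyl over the acetyl mark was larger at H4K12 than at H3K18 by a median of 1.36 over the 10 genes and 1.29 over all 18922 windows, on the log2 scale. In the limma test of that difference over 8 libraries (Benjamini-Hochberg), 7 of 10 genes had an unadjusted p under 0.05 and 0 passed adjustment, as did 0 of all windows, of which 4976 were under 0.05 unadjusted. Without H3K18ac in NaPr, replicate 1, 5 genes and 3948 windows were under 0.05 unadjusted, and the medians were 1.26 and 0.75.

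Butyryl and acetyl marks were compared under NaBu. At H3K18 all 10 genes were less covered by the butyryl mark, with no overlap, as were 75% of 17220 windows, with 0.0929% apart in the other direction. FOSL1 had 26.4 and 22.9% in H3K18bu against 60.3 and 50.8% in H3K18ac. JUN had 3.46 and 0.732% against 19.5 and 17.9%, FOS 5.62 and 8.63% against 32.9 and 20.3%, and FOSB 9.35 and 5.37% against 32.9 and 23.2%. JUNB had 17.1 and 8.93% against 45.9 and 25.9%. The butyryl values were nevertheless above the NaBu input in every case named, which was 1.36% for FOS and 0 for the others.

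With limma (Benjamini-Hochberg), 5 genes were lower in H3K18bu, where 26.7% of windows were, and 0 higher, where 0% were. JUN differed by -2.82 ± 0.55 (SE, adjusted p = 0.0369), FOSB by -1.82 ± 0.37 (adjusted p = 0.0394), FOS by -1.75 ± 0.38 (adjusted p = 0.0416), FOSL2 by -1.64 ± 0.40 (adjusted p = 0.0488) and FOSL1 by -1.14 ± 0.21 (adjusted p = 0.0354) on the log2 scale. The median was -1.76 over the 10 genes and -1.14 over all windows. The H3K18bu lists were shorter, with 22059 and 22497 regions against 116459 and 60344. At 22059 regions in each, 9 genes were still apart in the same direction. Limma then called 0 genes and 0 of 12794 windows, which says nothing about these genes in particular. Without H3K18bu replicate 1 or 2 the median over the 10 genes was -2.07 and -1.18. Leaving out H3K18ac replicate 1 or 2 gave -1.46 and -1.93. By percentile within the library, 2 genes were apart with less H3K18bu.

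At H4K12, 7 of the 10 genes were apart with less butyryl than acetyl coverage (FOS, FOSB, FOSL2, JUN, JUNB, JUND, ATF3) and 0 the other way, against 25.8 and 0.135% of 15588 windows. FOS had 4.57 and 4.51% in H4K12bu against 11.4 and 7.97% in H4K12ac, and JUND 2.86 and 0% against 21.1 and 4.39%. FOSL1 overlapped, with 9.36 and 10.6% against 31.4 and 10.0%. Limma (Benjamini-Hochberg) called 0 genes and 0% of windows, with 3 genes and 591 windows at an unadjusted p under 0.05. At 8158 regions in each list the count apart was 4, with 1 the other way, and JUNB and ATF3 turned to 0.900 and 0.411 points higher in H4K12bu. Without the long list, H4K12ac in NaBu, replicate 1, 1 gene was higher in H4K12bu. The median log2 difference was then -0.70 over the 9 genes tested and -0.23 over all windows.

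**Figure D4:**
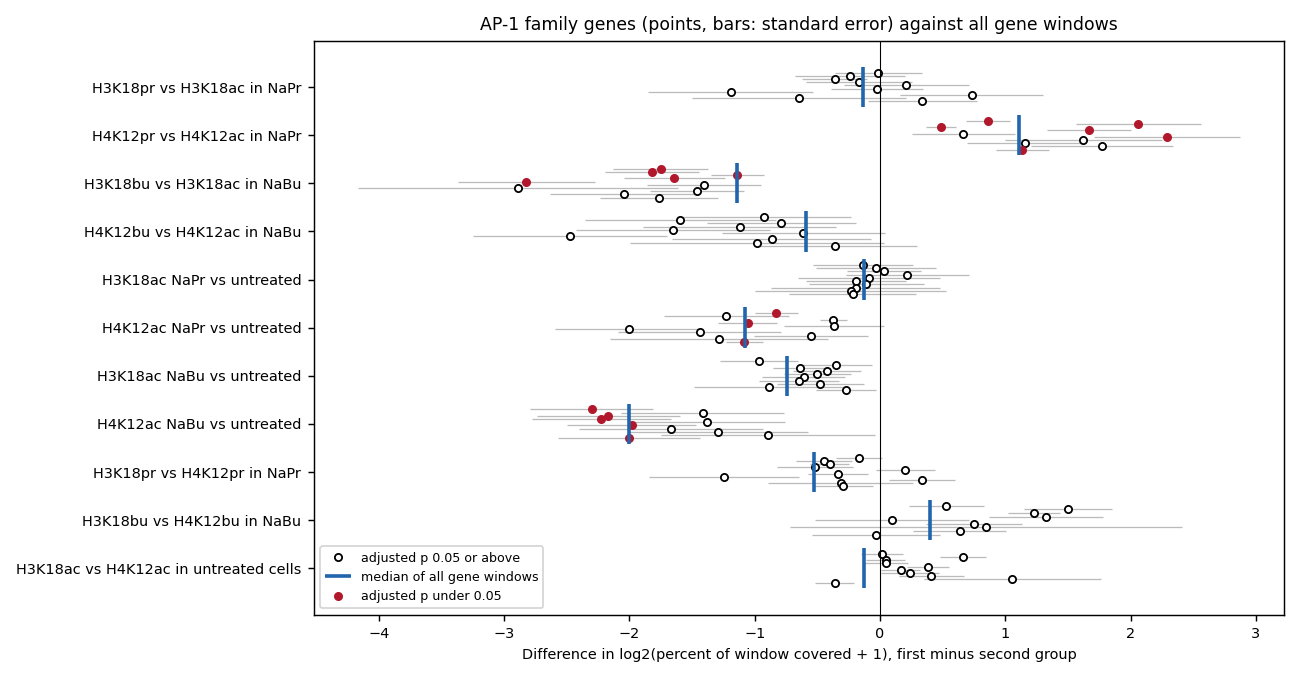
Difference in log2(percent of window covered + 1) between the first and second group of each of the 11 comparisons (x axis), for the AP-1 genes in the order FOS to MAFF from top to bottom (points with standard errors) and the median of all windows (blue line). Filled red points had an adjusted p under 0.05. The blue line runs from 1.11 for H4K12pr against H4K12ac to -2.0 for H4K12ac in NaBu against untreated. Of 10 genes, 1 lies above it in each comparison of butyryl with acetyl. In H3K18pr against H4K12pr and untreated H3K18ac against H4K12ac 9 do, and in the other comparisons 5 to 8.

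Acetyl marks were compared between treated and untreated cells. H4K12ac in NaPr covered 7 genes less than in untreated cells without overlap (FOS, FOSB, FOSL1, FOSL2, JUNB, JUND, MAFF) and 0 genes more, where 72.9 and 6.13% of 18485 windows did so. FOS had 30.4 and 26.3% in NaPr against 47.0 and 55.2%, and MAFF 20.2 and 20.9% against 46.0 and 43.5%. FOSL2 had 17.3 and 12.0% against 32.5 and 29.6%. With limma (Benjamini-Hochberg) these 3 were lower, where 45.5% of windows were, and 0 higher, where 0.849% were. MAFF differed by -1.08 ± 0.15 (SE, adjusted p = 0.0122), FOSL2 by -1.06 ± 0.24 (adjusted p = 0.0302) and FOS by -0.83 ± 0.17 (adjusted p = 0.0249), beside a median of -1.08 over all windows and -1.07 over the 10 genes. FOS turned to 0.17 when regions over input regions were left out. Without H4K12ac in NaPr, replicate 1, the median was -1.22 over the 10 genes and -1.20 over all windows. Without replicate 2 of the same group 2 genes were apart with more coverage in NaPr. Without untreated replicate 1 or 2 the medians over the 10 genes were -0.97 and -1.12. By percentile within the library, 0 genes were apart and lower in NaPr and 5 higher.

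H3K18ac in NaPr differed little from untreated. FOS (46.8 and 46.8% against 54.9 and 48.4%) and JUNB (49.3 and 43.6% against 56.7 and 49.7%) were lower without overlap, against 15.9% of 18373 windows, and 0 genes were higher, against 5.15%. These are small gaps, and the differences turned to 4.79 and 34.6 points higher in NaPr when regions over the inputs were dropped whole. Limma (Benjamini-Hochberg) called 0 genes and 0% of windows, with 0 genes and 302 windows under 0.05 unadjusted. The counts moved with single libraries. Without H3K18ac in NaPr, replicate 1, 2 genes were higher in NaPr and 4 higher in untreated cells, and without replicate 2 they were 1 and 5. Without untreated replicate 1, 3 genes were higher in NaPr, and without untreated replicate 2, 7 were higher in untreated cells.

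NaBu went with less coverage of the AP-1 genes by both acetyl marks. In H4K12ac 9 genes were apart and lower and 0 higher, where 81.6 and 0.274% of 18237 windows were. FOS had 11.4 and 7.97% in NaBu against 47.0 and 55.2% untreated, FOSL1 31.4 and 10.0% against 83.8 and 84.0%, JUNB 15.2 and 8.18% against 48.4 and 46.0%, and MAFF 16.2 and 6.55% against 46.0 and 43.5%. With limma (Benjamini-Hochberg) 5 genes were lower, where 66.2% of windows were, and 0 higher, where 0.0658% were. FOS differed by -2.30 ± 0.49 (SE, adjusted p = 0.00812), FOSL2 by -2.22 ± 0.55 (adjusted p = 0.0120), FOSL1 by -2.17 ± 0.57 (adjusted p = 0.0143), MAFF by -2.0 ± 0.57 (adjusted p = 0.0183) and JUNB by -1.98 ± 0.52 (adjusted p = 0.0139), around the median of -2.0 over all windows. At 11680 regions in each list 7 genes were apart and 2 called lower, as were 3016 of 10990 windows. Without H4K12ac in NaBu, replicate 1, the median was -2.39 over the 10 genes and -2.51 over all windows. Without untreated replicate 1 or 2, 0 genes and 2573 and 2552 windows were called lower, with medians over the 10 genes of -1.91 and -1.98. By percentile within the library, 1 gene was apart and lower in NaBu and 3 higher.

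In H3K18ac, 9 genes were apart and lower in NaBu and 0 higher, where 63.8 and 3.47% of 18421 windows were. FOS had 32.9 and 20.3% against 54.9 and 48.4%, FOSL1 60.3 and 50.8% against 94.7 and 79.1%, and JUN 19.5 and 17.9% against 27.8 and 26.0%. Limma (Benjamini-Hochberg) called 0 of the 10 genes, 0.907% of windows lower and 0.038% higher, with 2 genes and 5869 windows under 0.05 unadjusted. The median was -0.55 over the 10 genes and -0.74 over all windows. Without H3K18ac in NaBu, replicate 1, these medians were -0.68 and -0.99. FOS, FOSL1, FOSL2, JUNB, ATF3 and MAFF turned higher in NaBu, by 0.874 (MAFF) to 22.6 points (JUNB), when regions over input regions were left out.

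Both histone sites were then compared for the same acyl group. H3K18pr covered JUN and ATF3 more than H4K12pr and 6 genes less (FOS, FOSB, FOSL1, FOSL2, JUND, MAFF), where 8.46 and 45.6% of 18312 windows were apart in these directions. JUN had 29.2 and 29.3% against 25.6 and 24.9%, and ATF3 25.4 and 24.3% against 20.4 and 18.6%. FOS had 44.9 and 47.9% against 54.3 and 50.2%. FOS and JUN changed sign with flanks of 1 kb, and JUN, ATF3 and MAFF without regions over the inputs. Limma (Benjamini-Hochberg) called 0 genes and 0% of windows, with 0 genes and 4396 windows under 0.05 unadjusted.

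H3K18bu covered 6 genes more than H4K12bu (FOS, FOSB, FOSL1, FOSL2, JUNB, ATF3) and 0 less, where 42.3 and 1.47% of 10016 windows were apart. FOSL1 had 26.4 and 22.9% against 9.36 and 10.6%, and FOSB 9.35 and 5.37% against 1.98 and 1.76%. FOS had 5.62 and 8.63% against 4.57 and 4.51%, and changed sign with flanks of 1 kb and without regions over the inputs. Limma (Benjamini-Hochberg) called 0 of the 9 genes tested and 0% of windows, with 3 genes and 1702 windows under 0.05 unadjusted. Without H3K18bu replicate 1, 2 genes were higher in H4K12bu. Without replicate 2 the median log2 difference was 1.18 over the 9 genes tested and 0.57 over all windows.

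In untreated cells H3K18ac covered FOSB, JUN, JUNB and ATF3 more than H4K12ac and MAFF less, against 21.5 and 39% of 18392 windows. FOSB had 37.6 and 33.5% in H3K18ac against 24.2 and 20.2% in H4K12ac, and JUN 27.8 and 26.0% against 19.8 and 21.0%. MAFF had 36.0 and 33.2% against 46.0 and 43.5%. Limma (Benjamini-Hochberg) called 0 of the 10 genes, 4.09% of windows higher and 13.5% lower in H3K18ac, with 1 gene and 6320 windows under 0.05 unadjusted. At 76888 regions in each list 7 genes were higher in H3K18ac and 0 in H4K12ac, and MAFF turned by 1.09 points. JUN, JUNB and ATF3 turned to higher in H4K12ac without regions over the inputs. Leaving out untreated H3K18ac replicate 2 gave 8 genes higher in H3K18ac, while leaving out its replicate 1 or H4K12ac replicate 1 gave 3 and 2 higher in H4K12ac.

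Other genes of the pathway were counted in 4 lists, with limma (Benjamini-Hochberg). In H4K12pr against H4K12ac, 4 of 10 other bZIP genes were called higher, among them the small MAF genes MAFK (2.79 ± 0.23 on the log2 scale, adjusted p = 0.0147) and MAFG (2.78 ± 0.26, adjusted p = 0.0147). Of 13 upstream kinases and factors 6 were higher, led by MAP2K7 (4.08 ± 0.62, adjusted p = 0.0187), a kinase that activates JNK. Of 12 tested AP-1 targets 4 were higher, led by HMOX1 (1.93 ± 0.33, adjusted p = 0.0213), which encodes heme oxygenase. Of 10 other immediate-early genes 6 were higher, led by IER5 (3.18 ± 0.37, adjusted p = 0.0151). No gene of the 4 lists was called lower. Of all windows 31.5% were called higher. The list medians were 1.13, 1.62, 0.78 and 0.94 in that order, beside 1.11 over all windows.

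In H3K18bu against H3K18ac the calls lower were 5 of 10, 7 of 13, 4 of 13 tested and 5 of 10 in the same order of lists, where 26.7% of all windows were called lower, led by BATF2 (-3.80 ± 0.32, adjusted p = 0.0308), SRF (-1.94 ± 0.30, adjusted p = 0.0308), HMOX1 (-2.48 ± 0.31, adjusted p = 0.0308) and NR4A1 (-1.81 ± 0.21, adjusted p = 0.0308). SRF encodes serum response factor, which drives FOS. In H4K12ac the calls lower in NaPr than untreated were 6 of 10, 9 of 13, 4 of 13 tested (with 1 higher) and 6 of 10, where 45.5% of all windows were called lower. Those lower in NaBu than untreated were 8 of 10, 11 of 13, 8 of 12 tested and 7 of 10, where 66.2% of all windows were. In untreated cells, H3K18ac against H4K12ac gave 1 higher and 2 lower, 0 and 3, 0 and 1, and 0 and 0, where 4.09% of all windows were higher and 13.5% lower. In the other 6 comparisons limma called 0 genes of any list.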

How the data were processed

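Peak lists of 23 SW480 ChIP-seq libraries were used, 20 from immunoprecipitations and 3 from inputs. The submitters' processing notes name bcl2fastq 2.17.1, cutadapt 1.8.1, Bowtie2 2.3.1, MACS2 2.1.0 and hg38, and the authors removed duplicates, called regions in each library at a p-value threshold of 0.01 and dropped blacklisted ones. The deposited lists give a fold enrichment, a −log10 p-value and a −log10 q-value per region. Reads were not analysed here, so sequencing depth is unknown and no interval for counting error is given.

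Coverage, ranks (by −log10 p) and summit distances were computed over 20033 windows with Python 3.11.15, numpy 2.4.6 and pandas 2.3.3, and drawn with matplotlib 3.10.9. Coverage was tested as log2(percent + 1), which understates changes of low windows, with limma 3.58.1 (R 4.3.3; trend, robust, two-sided, Benjamini-Hochberg) over windows with a region in at least 1 of the 4 libraries. Coverage also cannot pass the whole window, which limits increases of highly covered windows. The test was checked on simulated data for the H3K18 comparisons of acyl with acetyl, with independent noise and few changed windows. That check does not cover shifts of whole lists such as those found here. All 10 genes are named, and from each pathway list at most the 3 called genes with the lowest p. The genes and lists were chosen with earlier results of these data known. Alternatives changed the flanks, the region filter, list length, pseudocount, window filter, libraries fitted and replicate block.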

Additional observations from a re-analysis of the deposited data

Results flagged for a closer look

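Some genes moved in opposite directions in a pair of contrasts of the same kind, with every library of one group beyond every library of the other. The values are differences in percentage points of window covered, acyl minus acetyl, and by this criterion the difference between the contrasts was not tested. In NaPr, FOSB was -5.61 at H3K18 and 30.4 at H4K12, and JUND was -18.5 and 24.2. Of all windows, 12.1% were apart with more H3K18ac and 66.5% with more H4K12pr. Fewer genes were apart with more H3K18ac than H3K18pr at q under 0.05. FOSL1 was -19.7 at H3K18 and 26.4 at H4K12, where it turned to -1.79 without input regions. In the limma test of that difference (Benjamini-Hochberg) 0 of 10 genes passed and 7 had an unadjusted p under 0.05, or 5 without H3K18ac in NaPr, replicate 1.

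Between NaPr (propionyl) and NaBu (butyryl) at H3K18, ATF3 was 10.2 and -8.01 and MAFF 7.95 and -20.1. At H4K12, FOS was 23.9 and -5.13, FOSB 30.4 and -6.70, FOSL2 34.7 and -3.71, and JUN 8.58 and -6.09. JUNB was 45.0 and -4.71 there, JUND 24.2 and -11.3, and ATF3 10.6 and -3.06. Over all windows the median log2 difference at H4K12 changed sign too, from 1.11 to -0.59, with 66.5 and 25.8% of windows apart in these directions. At H3K18, 13.6% of windows were apart with more propionyl and 75% with less butyryl than acetyl coverage. The share of windows that did both was not counted, so these flags are not particular to the AP-1 genes. At equal list lengths the NaBu values of JUNB and ATF3 turned to 0.900 and 0.411, and without input regions the NaPr value of MAFF at H3K18 turned to -1.37. These contrasts differ in acyl group, treatment and run at once, which cannot be told apart.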

How the results depend on the processing

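Leaving out regions that share 1 bp or more with an input region moved the counts of genes apart (first group higher, then second) to 0 and 5 for H3K18pr against H3K18ac, 4 and 0 for H3K18ac in NaPr against untreated, 4 and 3 for H3K18ac in NaBu against untreated, and 1 and 6 for untreated H3K18ac against H4K12ac. It moved the count higher in H4K12pr than H4K12ac to 6 and that higher in H3K18pr than H4K12pr to 0. Because each region was dropped whole, wide blocks were lost entirely. The single FOS region of H3K18pr, 6016 and 6427 bp wide in replicates 1 and 2, was among them. Counting regions in place of coverage gave 0 and 6, 4 and 0, 5 and 1, and 0 and 6 in the same 4 comparisons, 2 and 1 for H4K12pr against H4K12ac and for H3K18bu against H4K12bu, 5 lower in NaBu for H4K12ac, and 0 higher in H3K18pr than H4K12pr. The percentile within the library was added after seeing the data. It gave 1 and 1 for H3K18pr against H3K18ac, 1 and 4 for H4K12pr against H4K12ac, 2 higher in H3K18ac than H3K18bu, 1 and 3 for H4K12bu against H4K12ac, 2 and 0 (H3K18ac) or 5 and 0 (H4K12ac) in NaPr against untreated, 3 and 2 (H3K18ac) or 3 and 1 (H4K12ac) in NaBu against untreated, 6 and 1 for H3K18pr against H4K12pr, and 3 and 2 for H3K18bu against H4K12bu. Equal list lengths gave 1 and 4 for H4K12bu against H4K12ac and 7 and 0 for the untreated sites, and q under 0.05 gave 1 higher in H3K18ac than H3K18pr. The share of all windows apart was counted for the main values only, so these counts have no background beside them.

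The limma counts (of 10 genes) for H4K12pr against H4K12ac were 2 with 1 kb flanks, 1 without input regions, 0 by number of regions, 1 with no filter and 3 with all libraries in the fit. All windows called higher were then 3732 of 17964, 4128 of 18436, 0 of 18475, 2339 of 20033 and 6829 of 18475 in that order. For H3K18bu against H3K18ac the gene counts were 2, 2, 1, 0 and 9, and 0 at equal list lengths. All windows called lower were 2653 of 16478, 2621 of 16980, 2475 of 17220, 17 of 20033, 5451 of 17220 and 0 of 12794. H4K12bu against H4K12ac gave 2 with 1 kb flanks and 1 with a pseudocount of 0.1, where 73 of 14266 and 44 of 15588 windows were called lower. H4K12ac in NaPr against untreated gave 1 by number of regions and 1 with all libraries, where 4121 and 5701 of 18485 windows were called lower. H4K12ac in NaBu against untreated gave 0 by number of regions, 2 each at equal lengths, pseudocount 0.1 and no filter, and 8 with all libraries. Windows called lower there were 0 of 18237, 3016 of 10990, 2024 of 18237, 4662 of 20033 and 12959 of 18237. H3K18bu against H4K12bu gave 2 with q under 0.05, and untreated H3K18ac against H4K12ac gave 1 without input regions and 2 by number of regions. Windows called in the same directions were 285 of 5356, 2197 of 18348 and 4075 of 18392. The causes were not tested.

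Same-numbered libraries deviated together little (correlations of -0.04 to 0.24), which does not tell whether they were prepared together. With the replicate block limma called 10 genes for H3K18bu against H3K18ac and 1 each for H4K12bu against H4K12ac and for the untreated sites, and other counts moved by less than 1.5 times. Windows called in the same directions in these 3 comparisons were 7861 of 17220, 25 of 15588 and 1032 of 18392.

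With 1 library left out, limma calls ranged from 1 to 9 for H3K18bu against H3K18ac, 0 to 8 and 0 to 9 for H4K12ac in NaPr and in NaBu against untreated, 0 to 2 for H3K18ac in NaBu, 0 to 1 for H4K12bu against H4K12ac and for H3K18bu against H4K12bu, and were 0 in the others. Many of these fits called 0 of all windows too and then say nothing about stability. The counts of all windows called also moved between fits, so these ranges do not describe these genes in particular. Genes apart ranged from 2 to 3 and 4 to 6 for H3K18pr against H3K18ac, 0 to 1 and 7 to 10 for H4K12bu against H4K12ac, 0 to 3 and 2 to 7 (H3K18ac) or 0 to 2 and 7 to 10 (H4K12ac) in NaPr against untreated, 9 to 10 lower for both marks in NaBu, 2 to 3 and 6 to 8 for H3K18pr against H4K12pr, 6 to 9 and 0 to 2 for H3K18bu against H4K12bu, and 4 to 8 and 1 to 3 for the untreated sites. They stayed at 10 for H4K12pr against H4K12ac and H3K18bu against H3K18ac. Where 1 library was left in a group, it was assumed to vary like the other group. The fit of H4K12bu against H4K12ac without H4K12ac replicate 2, and that of H3K18bu against H4K12bu with no filter, could not be fitted.

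Differences in percentage points that changed sign without input regions were MAFF (-1.37) in H3K18pr against H3K18ac, FOSL1 (-1.79, and -0.163 on the log2 scale) in H4K12pr against H4K12ac, FOS (4.79) and JUNB (34.6) in H3K18ac in NaPr, FOS (3.42, and 0.17 on the log2 scale) in H4K12ac in NaPr, and FOS (8.97), FOSL1 (10.5), FOSL2 (4.67), JUNB (22.6), ATF3 (4.36) and MAFF (0.874) in H3K18ac in NaBu. So did JUN (-13.6), ATF3 (-0.511) and MAFF (1.55) in H3K18pr against H4K12pr, FOS (-0.157) in H3K18bu against H4K12bu, and JUN (-1.10), JUNB (-40.4) and ATF3 (-6.81) in the untreated sites. With 1 kb flanks FOS (1.92) and JUN (-0.391) in H3K18pr against H4K12pr and FOS (-0.407) in H3K18bu against H4K12bu did so, and at equal list lengths JUNB (0.900) and ATF3 (0.411) in H4K12bu against H4K12ac and MAFF (1.09) in the untreated sites.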
